A study of Bubalus bubalis with 6 samples.

Results

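The CpG-dense probes of a methylation array hybridised with water buffalo sperm DNA are described here. They were the non-control probes on autosomes whose 60-base sequence held 7 or more CpGs (a C followed by a G) and whose input DNA was well above background on all 6 arrays. These criteria left 670 of the 177440 non-control probes. Of the 861 probes with 7 or more CpGs, 860 were autosomal, and 190 of those were lost to the input filter. Among the 670, 590 held 7 CpGs, 77 held 8 and 3 held 9.

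The study compared sperm of water buffalo bulls (Bubalus bubalis) labelled high fertile (named HF2, HF3 and HF5) or sub fertile (SF1, SF4 and SF5), with 1 array per bull. DNA from cryopreserved semen was sonicated, fragments carrying 5-methylcytosine were pulled down with an antibody (meDIP), and this immunoprecipitated (IP) DNA in Cy5 was hybridised together with the same bull's input DNA in Cy3. The labels do not say how fertility was scored, and give no age or breed. Each value below is a log2(IP/input) with the median of each array's non-control probes set to 0, so that a negative value marks less antibody-bound DNA than the median probe of that array. It is a relative level of antibody-bound DNA and no percentage of methylated cytosines. The 3 values of a group came from 3 bulls, and that number limits the precision of every comparison.

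Vertebrate DNA is methylated mostly at CpGs, and methylated CpGs are lost over evolutionary time by deamination, so dense CpGs persist mainly where the germline leaves them unmethylated. Such CpG islands often lie at gene promoters and at developmental genes. The antibody binds single-stranded DNA with several 5-methylcytosines, so a fragment with many CpGs can bind it strongly when methylated and hardly at all when not. A probe reports on the fragments around it as well as on its own 60 bases, since per the labels the fragments were 300 to 1000 bp long.

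To show what these probes are, the sequences with the most CpGs come first. The 3 probes with 9 CpGs lay on chromosome 26 (19028104 to 19028163), chromosome 21 (50319183 to 50319242) and chromosome 1 (71376478 to 71376537), none of them with a gene name. CpGs are in capitals, 5′ to 3′ as the array lists them.
Chromosome 26 probe: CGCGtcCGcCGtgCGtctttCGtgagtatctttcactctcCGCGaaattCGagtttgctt
Chromosome 21 probe: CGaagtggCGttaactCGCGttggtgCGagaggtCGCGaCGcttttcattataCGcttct
Chromosome 1 probe: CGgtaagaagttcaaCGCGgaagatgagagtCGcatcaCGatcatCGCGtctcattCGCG

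The named probes with the highest and the lowest mean level among those whose IP DNA was well above background in all 6 bulls are printed next, again with CpGs in capitals. BCAS2, PDE4DIP and TFB2M were the highest and HNRNPA1, APBB3 and TBC1D2 the lowest.
BCAS2, chromosome 3, 31205352 to 31205411: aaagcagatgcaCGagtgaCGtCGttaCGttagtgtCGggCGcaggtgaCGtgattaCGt
PDE4DIP, chromosome 3, 24759304 to 24759363: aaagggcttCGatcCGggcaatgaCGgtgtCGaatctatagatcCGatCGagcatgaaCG
TFB2M, chromosome 16, 27864256 to 27864315: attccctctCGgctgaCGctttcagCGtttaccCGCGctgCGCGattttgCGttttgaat
HNRNPA1, chromosome 5, 28636207 to 28636266: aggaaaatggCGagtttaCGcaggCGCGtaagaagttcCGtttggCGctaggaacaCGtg
APBB3, chromosome 7, 51059159 to 51059218: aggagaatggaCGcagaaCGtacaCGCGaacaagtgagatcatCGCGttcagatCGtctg
TBC1D2, chromosome 8, 66248018 to 66248077: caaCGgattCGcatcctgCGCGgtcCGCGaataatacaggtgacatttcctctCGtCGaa

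A further 4 probes, chosen after their values were seen, stand for the extremes described below: the one with the highest mean, one from the locus with the largest differences between scan dates, and a pair from genes at the low end.
ZMYM1 (no name of its own, overlaps a probe named so), chromosome 3, 117879387 to 117879446: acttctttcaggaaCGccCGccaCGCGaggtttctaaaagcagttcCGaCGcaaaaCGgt
Chromosome 10 probe, 63871640 to 63871699: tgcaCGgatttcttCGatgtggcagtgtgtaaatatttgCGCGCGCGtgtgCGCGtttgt
HOXA9 (no name of its own, overlaps a probe named so), chromosome 4, 71609395 to 71609454: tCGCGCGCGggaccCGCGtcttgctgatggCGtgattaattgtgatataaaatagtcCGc
ZDHHC20, chromosome 12, 35865755 to 35865814: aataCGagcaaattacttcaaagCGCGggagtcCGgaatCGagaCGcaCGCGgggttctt

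The probes were dense in CpGs, and their content of C and G lay toward the upper end of the array's range. They held 26 to 32 C or G bases of 60 with a median of 32, against a median of 31 over all tested probes, and no non-control probe on the array held more than 32. The tetramer CGCG was present in 64.5% of them and in 13.1% of all autosomal probes with the same input filter. GCGC was present in 46.4% against 16.0%, and CCGG in 24.5% against 17.5%; each of these reads the same on both strands, and CGCG and GCGC can overlap. These shares follow in part from the rule, which selected CpGs. The GC box GGGCGG, searched on both strands, was present in 1.94% against 2.81%, and the cyclic AMP response element TGACGTCA in 1.34% against 0.201%.

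The 670 probes fell into 413 loci when probes with gaps of at most 500 bp were joined, and 253 loci held a single CpG-dense probe. The largest locus held 7. By count, chromosome 19 held the most, 58 or 8.29 per 1000 filtered probes. It was followed by chromosome 5 with 45 (8.13 per 1000), chromosome 3 with 42 (6.07) and chromosome 13 with 40 (7.93). Over all autosomes it was 6.04 per 1000. Rates were higher on chromosomes 16 (9.76), 28 (9.11) and 20 (8.75). They were so too on chromosomes 7, 8 and 9, which had only 349, 113 and 99 filtered probes and 4, 1 and 1 CpG-dense ones. The last 5 Mb of probes on each chromosome held 13.9% of the CpG-dense probes and 20.4% of all filtered autosomal probes. The files gave a gene name to 42 of them (6.27%, against 6.89% of all tested probes), each with a different gene, and 33 of these names were found among RefSeq's symbols and synonyms for assembly NDDB_SH_1. A further 230 lay within 500 bp of a named probe, which linked them to 145 genes. The files do not class a probe as exonic, intronic or promoter, and the genome build of the coordinates is not given in these sources. The array numbers the autosomes 1 to 29, and whether its probe sequences come from buffalo or another species was not checked. Positions and CpG numbers are therefore those of the array's probes, and the bulls' own DNA may differ from them.

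Most CpG-dense probes lay below the array median: 545 of the 667 tested (81.7%) did so on average over the bulls, against 65.4% of all tested probes. The other 3 of the 670 carried a non-uniformity flag and were not tested. Their median log2(IP/input) was -0.54, -0.56 and -0.19 in HF2, HF3 and HF5 and -0.12, -0.55 and -0.30 in SF1, SF4 and SF5, a mean of -0.38 ± 0.20 (SD, n = 6 bulls). Over all 110686 tested probes it was -0.16 ± 0.14. The CpG-dense median lay below the median of all tested probes in 6 of 6 bulls, by 0.10 in SF1 to 0.30 in HF3. The 3 bulls near -0.55 shared the first scan date (HF2, HF3 and SF4), and the other 3 (HF5, SF1 and SF5), with later scan dates, lay higher.

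Below the array median in all 6 bulls were 239 of the 667 (35.8%, against 21.9% of all tested probes). Above it in all 6 bulls were 12 (1.8%, against 4.55%). In limma's test of the mean over bulls against the array median, 189 of the 667 were called lower at an adjusted p below 0.05, which is 28.3%; among all tested probes 15.0% were called lower. Called higher were 8 (1.2%), against 2.74% of all tested probes. With each array centred on its tested probes, which moves every value up by 0.16 on average, 122 were called lower and 13 higher. Without SF5, 34 were called lower and 1 higher. The shares of all tested probes given above belong to the main fit, so the counts of these alternatives cannot be set against them. The 34 were also the probes called lower in each of the 6 fits that leave out a bull. Among the probes described below, those 34 include both at ZDHHC20, the 3 at GABARAP, 1 of 2 at STC2, the unnamed probe at CHD2 and the one at TOMM40. They include none at HNRNPA1, TERF2IP, HOXA9 or the other transcription factors. Of the 189, 77 had IP DNA well above background in all 6 bulls (21.8% of the tested CpG-dense probes with it). The other 112 did not (35.8% of those without it). Most of the 34 also fell short of all 6 bulls. IP DNA was well above background in 6 bulls at TOMM40 and STC2 and in 5 at ZDHHC20 and CHD2. At the GABARAP probes it was so in 5, 4 and 3 bulls, and near GTPBP5 in 1.

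The level declined with CpG number. Medians over tested autosomal probes were -0.06 ± 0.09 for 0 CpGs, -0.16 ± 0.16 for 3, -0.27 ± 0.17 for 5, -0.32 ± 0.18 for 6, -0.37 ± 0.20 for 7 and -0.44 ± 0.17 for 8 (SD, n = 6 bulls). The share called lower went from 8.22% at 0 CpGs to 14.8% at 3, 26.5% at 6 and 27.6% at 7. The values at 6 CpGs (2975 probes) and at 7 (587 probes) lie just outside and just inside the rule. In the 3 bulls of the first scan date the median dropped at each added CpG from 0 to 7. In the 3 bulls of later dates it was higher at 2 CpGs than at 0 and dropped from there. The gap between CpG-dense probes and probes without a CpG was 0.47, 0.65 and 0.54 in HF2, HF3 and SF4, and 0.10, 0.03 and 0.14 in HF5, SF1 and SF5.

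**Figure D1:**
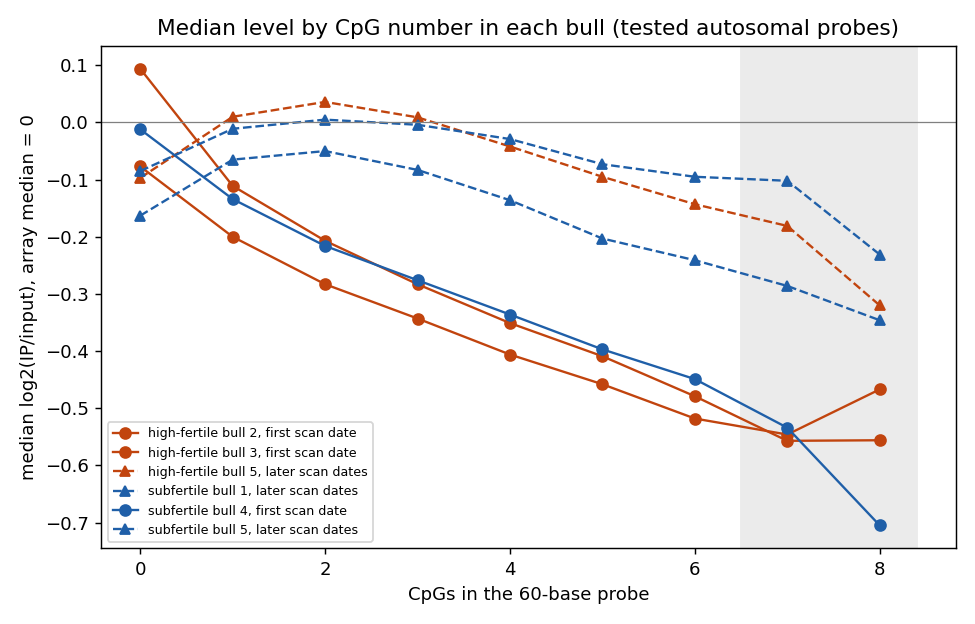
Median log2(IP/input) of the tested autosomal probes (vertical axis) against the number of CpGs in the 60-base probe (horizontal axis), 1 line per bull; orange marks high-fertile and blue subfertile bulls, circles with solid lines the first scan date and triangles with dashed lines later dates. The grey band marks 7 and 8 CpGs, where the 6 bulls lie between -0.10 and -0.70; the 3 probes with 9 CpGs are not drawn.

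Base composition was held near constant by reading only probes with 30 to 32 C or G bases. There the median was -0.08 ± 0.04 for 0 CpGs (2504 probes), -0.16 ± 0.17 for 3 (22962 probes) and -0.37 ± 0.20 for the 630 CpG-dense probes. The input signal of CpG-dense probes was 10.75 ± 0.31 on the log2 scale, against 10.65 ± 0.38 for all tested probes, and their IP signal 10.37 ± 0.39 against 10.47 ± 0.45. IP DNA was well above background in all 6 bulls at 356 of the 670 (53.1%, against 54.0% of all tested probes). At 13 it never was so in at least 1 group, and the level there is an upper bound.

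The surroundings of these probes were low as well. For 619 of them, tested probes with fewer CpGs lay within 300 bp, 8 in the median, with 4.14 CpGs on average against 7.12. The CpG-dense probe lay below the mean of these neighbours in the median of each of the 6 bulls, by 0.02 in HF2 to 0.12 in SF4, a mean difference of -0.08 ± 0.04 (SD, n = 6). The gap to all tested probes was -0.21 ± 0.08. Overlapping CpG-dense probes of a locus, 243 pairs, differed from each other by a median of 0.17 in SF1 to 0.39 in HF2. Within the set, the 430 tested probes with CGCG had a median of -0.40 ± 0.18 and the 237 without it -0.30 ± 0.24, lower with CGCG in 5 of 6 bulls.

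Among the 42 named probes 7 were called lower (16.7%, near the 15.0% of all tested probes) and none higher. The highest, BCAS2, stood at 0.64 on average and the lowest, ZDHHC20, at -1.18. The median of the named probes was -0.26 ± 0.32 (SD, n = 6 bulls). The 397 tested probes with no name within 500 bp had a median of -0.37 ± 0.18, and the 228 near a named probe -0.40 ± 0.22. The 7 called lower were ZDHHC20, HNRNPA1, HIRIP3, CCDC92, APBB3, CHD2 and TBC1D2.

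The ZDHHC20 probe, at a gene for a protein palmitoyltransferase, read -1.11, -1.19 and -1.33 in HF2, HF3 and HF5 and -0.72, -1.43 and -1.31 in SF1, SF4 and SF5. All 6 bulls were far below the array median, and the groups overlapped (mean -1.18 ± 0.25, limma adjusted p = 0.00611). A second probe 1 bp away had a mean of -1.21, so both CpG-dense probes of this gene were called lower. HNRNPA1 encodes an RNA-binding protein of pre-mRNA splicing. Its named probe read -1.01, -1.16 and -0.89 in HF2, HF3 and HF5 and -0.71, -0.71 and -0.71 in SF1, SF4 and SF5 (mean -0.86 ± 0.19, limma adjusted p = 0.00803; 0.0505 without SF5). The 4 CpG-dense probes at HNRNPA1 were all called lower, with means from -0.87 to -0.56, and 2 of them have the same sequence.

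APBB3, a binding partner of the amyloid precursor protein, averaged -0.66 ± 0.55 with HF3 at -1.61 and HF5 at -0.08 (limma adjusted p = 0.0473). That call was lost without HF2, HF3, SF1, SF4 or SF5 (adjusted p 0.106 to 0.124), with centring on tested probes (0.0831), without the input filter (0.0974) and with the slide as a block (0.0597). TBC1D2, a GTPase-activating protein for Rab proteins, averaged -0.58 ± 0.24 with bulls between -0.83 and -0.28 (adjusted p = 0.0285), and lost its call without HF2, SF1, SF4 or SF5 (0.0535 to 0.11), with centring on tested probes (0.0683) and without the input filter (0.0636). CHD2, a chromatin remodeller, averaged -0.62 at its named probe and -1.42 at a CpG-dense probe 2 bp further on. That pair of overlapping probes shows how far probe-specific readings can part. For HIRIP3 (mean -0.85) and CCDC92 (mean -0.82), IP DNA was well above background in 5 and 2 of 6 bulls.

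At the high end, TFB2M, a mitochondrial transcription factor, read -0.17, 0.77 and 0.46 in HF2, HF3 and HF5 and 0.25, 0.32 and 0.13 in SF1, SF4 and SF5. It was above the array median in 5 of 6 bulls, and its mean of 0.29 ± 0.32 missed the threshold (limma adjusted p = 0.236). PDE4DIP, a scaffold protein of the Golgi and centrosome, averaged 0.31 ± 0.52, but a second spot of the same sequence averaged -0.01. RBPJ, the DNA-binding effector of Notch signalling, averaged 0.28 ± 0.58, and a second spot of its sequence 0.26. The next 4 in order were MIR124B, a microRNA gene, with 0.14, the DM-domain transcription factor DMRTA2 with 0.08, the splicing regulator RBM4 with 0.07 and the cell cycle gene CKS1B with 0.03. None of these 4 was called, and the sign of each turned in at least 1 alternative processing.

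The loci with several CpG-dense probes allow a level to be read from more than 1 probe; those named in this paragraph were chosen after their values were seen, and none of their values adds to the test counts above. At GABARAP, a gene of autophagy, 3 CpG-dense probes on chromosome 19 (27333781 to 27334149) averaged -1.02, -1.40 and -1.15 in HF2, HF3 and HF5 and -0.64, -1.30 and -0.91 in SF1, SF4 and SF5. All 3 were called lower. At STC2, which encodes the hormone stanniocalcin 2, 2 probes averaged -0.95 ± 0.23 (chromosome 20, 5047147 to 5047210). At TERF2IP, a telomere protein gene, 4 probes averaged -0.72 ± 0.10 (chromosome 18, 2353918 to 2353991), and the 6 bulls spanned only -0.83 to -0.60. A single probe 37 bp from a probe of TOMM40, a subunit of the mitochondrial import pore, averaged -1.19 ± 0.43 (chromosome 18, 52404107 to 52404166).

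The developmental transcription factors were read as a list. With names of neighbours within 500 bp counted, 17 tested CpG-dense probes lay at 10 genes of the list of 170 such factors, of which 88 had a named probe on the array. Called lower were 7 of the 17 and called higher none, beside 28.3% and 1.2% of all tested CpG-dense probes. Their median mean level of -0.41 was close to the -0.36 over all tested CpG-dense probes. The list does not hold every such factor with a CpG-dense probe. Of genes outside it, the loci at HMX2 (0.37), DMRTA2 (0.14) and MYOD1 (0.08) averaged above the array median. Those at GSC (-0.94), GBX2 (-0.88), ALX1 (-0.41), FEZF2 (-0.29) and TBX6 (-0.02) averaged below it. The probes at GSC and GBX2 were called lower, and none at HMX2, DMRTA2 or MYOD1 was called higher. The 3 probes at HOXA9, a homeobox gene of axial patterning, were all called lower; they averaged -0.87, -0.47 and -1.58 in HF2, HF3 and HF5 and -0.71, -0.82 and -1.37 in SF1, SF4 and SF5 (chromosome 4, 71609391 to 71609683). IRX4 (-0.96), the cardiac homeobox gene NKX2-5 (-0.84), OLIG1 (-0.69) and 1 of 2 probes at TFAP2C (-0.76), an AP-2 transcription factor of germ cells and trophoblast, were called lower too. The named probes of LHX1 (-0.27 ± 0.18), HAND1 (-0.26 ± 0.36) and MEIS1 (-0.21 ± 0.24), 3 probes at GATA2 (-0.35 to -0.19) and 1 at LHX9 (-0.36), were not called.

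The other lists touched few CpG-dense probes. Of the translation genes, the laminin receptor and ribosomal protein gene RPSA had 1 probe nearby (-0.61) and the initiation factor gene EIF3D 2 tested probes (-0.85 and -0.35); the first of each was called lower and the other EIF3D probe was not. Single probes lay near HELLS (-0.14), a helicase required for DNA methylation, GFRA1 (-0.01), a receptor of spermatogonial stem cells, PEG10 (0.11), a maternally marked imprinted gene, and TGFB2 (-0.01). At PEG10 HF2 read -1.05 and the other 5 bulls 0.13 to 0.50. None of the probes near HELLS, GFRA1, PEG10 and TGFB2 was called. Of 10 leukocyte markers, RUNX3 alone had a CpG-dense probe nearby (-0.11, bulls -0.43 to 0.36), and of 8 epithelial markers none had one, so these probes do not check the labelled cell type.

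The 8 probes called higher than the array median came from 6 loci, 2 of them near a gene name. The probe at ZMYM1 read 1.11, 1.61 and 2.52 in HF2, HF3 and HF5 and 1.77, 0.30 and 2.16 in SF1, SF4 and SF5. It was the highest CpG-dense probe by mean (1.58 ± 0.79, limma adjusted p = 0.00822), though also called higher on later dates (1.01 on the first date and 2.15 later, adjusted p = 0.0327), with IP well above background in 4 of 6 bulls, and the only probe still called higher when each bull in turn was left out. At DZIP3, a ubiquitin ligase gene, a probe on chromosome 1 (54993429 to 54993488) read 1.09, 2.57 and 0.17 in HF2, HF3 and HF5 and 0.65, 0.67 and 0.53 in SF1, SF4 and SF5 (mean 0.94, adjusted p = 0.0357). The others lay on chromosome 3 (127319857), chromosome 10 (3 probes at 63871599 to 63871699), chromosome 11 (28471267) and chromosome 14 (19090203), with means from 0.53 to 1.21.

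Levels differed between scan dates, which had to be read before the fertility groups because 2 high-fertile bulls and 1 subfertile bull were scanned first and 1 high-fertile bull and 2 subfertile bulls later. In limma's fit with group and date, 63 of the 667 CpG-dense probes were called higher on later dates (9.45%), against 6.5% of all tested probes, and 12 lower (1.8%), against 1.58%. The median difference, later minus first, was 0.33 against 0.27 over all tested probes. No CpG-dense probe was called with the slide as a block, or when HF5, SF1, SF4 or SF5 was left out. Slide and protocol went in part with date. HF5 and SF5, of later dates, shared slide 1, while SF1 was on slide 2 with the arrays of the first date. SF1 alone had the CGH protocol. The parts of date, slide and protocol were not tested, nor was what else differed between the scan dates. Over the 667 probes the arrays of later dates correlated with each other at 0.77 to 0.81, those of the first date at 0.38 to 0.52, and arrays of different dates at 0.13 to 0.35, as a description of arrays that share probes and processing.

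The CpG-dense probes lower on later dates formed 8 loci. The locus on chromosome 10 (63871599 to 63871703), with no named probe within 500 bp, had 5 CpG-dense probes that overlap. They hold runs of CG and TG repeats, as in the sequence printed above. They averaged 1.25, 2.71 and 2.22 in HF2, HF3 and SF4, the first date, and -0.05, 0.33 and 0.32 in HF5, SF1 and SF5. The dates did not overlap, and 4 of the 5 probes were called; the probe printed above differed by -2.13 ± 0.38 (SE, limma adjusted p = 0.0296). BCAS2, a splicing factor gene, was the only named probe of this direction. It read 0.80, 2.35 and 1.32 in HF2, HF3 and SF4 (first date) and -0.48, -0.09 and -0.03 in HF5, SF1 and SF5 (later dates), a difference of -1.71 ± 0.42 (SE, adjusted p = 0.0466). Its high mean of 0.64 thus came from the 3 bulls of the first date.

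The 10 named probes higher on later dates were ATP6V0B, OCEL1, ISY1, TFB1M, PSMB10, MIR124B, C1QBP, RBPJ, LOC281370 and THAP6. ATP6V0B, a subunit of the vacuolar proton pump, read -1.31, -1.53 and -0.60 on the first date and 0.53, 0.59 and 0.79 on later dates, in the same order of bulls, a difference of 1.62 ± 0.26 (SE, limma adjusted p = 0.028). The dates did not overlap, and each date held both groups. OCEL1 differed by 1.5 ± 0.32, ISY1, a splicing factor gene, by 1.35 and TFB1M, a methyltransferase of mitochondrial ribosomal RNA, by 1.29. A probe at TMEM63C, an ion channel gene, differed by 1.65 ± 0.32 and stood at 1.46 on average on later dates. By contrast HNRNPA1 differed by 0.10 ± 0.23 and ZDHHC20 by 0.11 between dates, and neither was called.

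**Figure D2:**
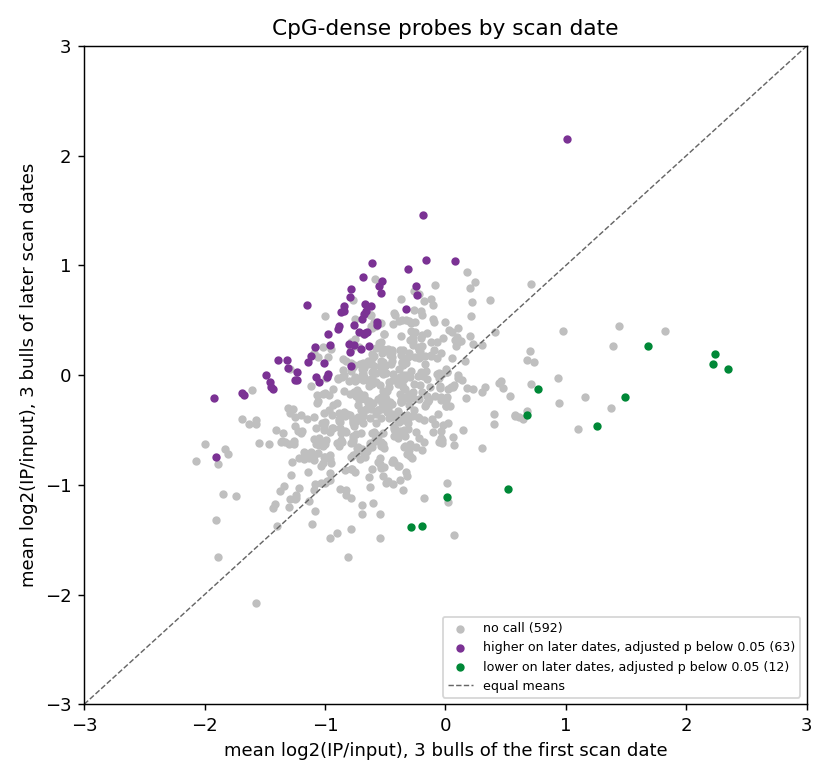
Mean log2(IP/input) of the 667 tested CpG-dense probes over the 3 bulls of the first scan date (horizontal axis) and the 3 bulls of later dates (vertical axis); purple marks the 63 probes called higher and green the 12 called lower on later dates at a limma adjusted p below 0.05, grey the other 592, and the dashed line equal means. Most purple points lie below 0 on the first date, and the green points to the far right, beyond 2.2, are from the chromosome 10 locus.

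**Figure D3:**
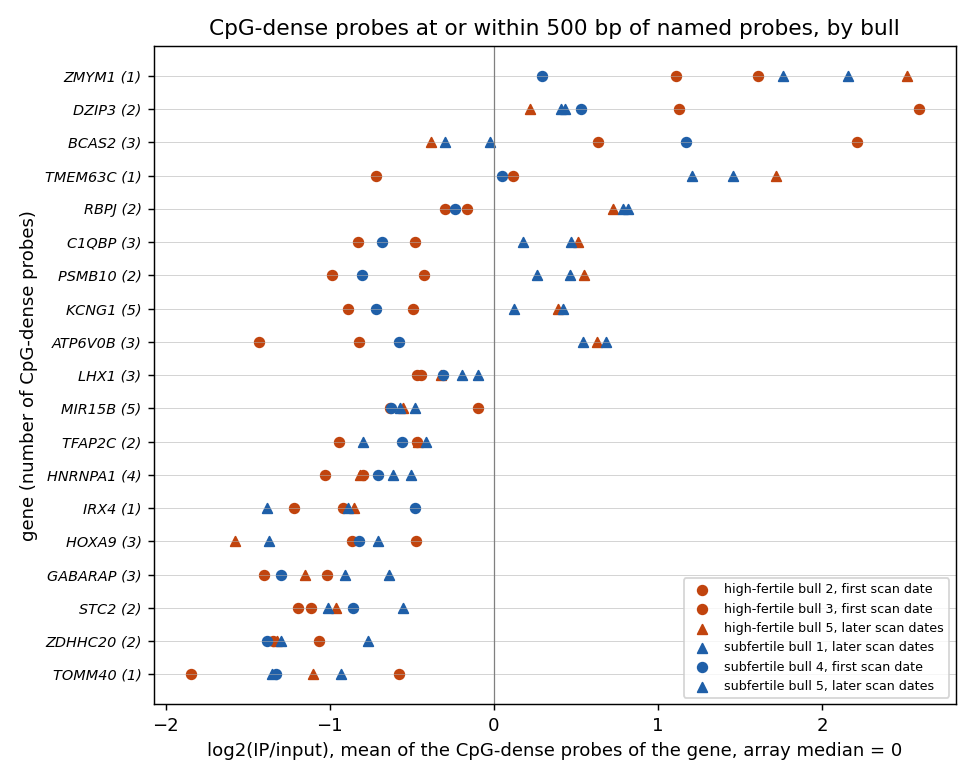
Log2(IP/input) of the CpG-dense probes of 19 genes chosen after the values were seen (horizontal axis), averaged over the probes of each gene, whose number follows the name; 1 point per bull, orange high-fertile and blue subfertile, circles first scan date and triangles later dates. The lower genes, such as ZDHHC20 and HNRNPA1, lie below 0 in all 6 bulls on both dates, while ATP6V0B, KCNG1, PSMB10 and C1QBP lie below 0 on the first date and above it on later dates.

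No CpG-dense probe differed between high-fertile and subfertile bulls at the threshold. With limma, 0 of 667 were called at an adjusted p below 0.05, as were 0.0% of all 110686 tested probes; the smallest adjusted p among CpG-dense probes was 0.99998. At an unadjusted p below 0.05 there were 7 (1.05%), against 1.84% of all tested probes, all 7 lower in high-fertile bulls. The median difference, high-fertile minus subfertile, was -0.14, against -0.09 over all tested probes, and 66.3% of CpG-dense probes had a negative difference against 61.4% of all. With the scan date as a block the median difference was -0.03 and again none was called. Within the first date (2 high-fertile bulls and 1 subfertile bull) it was -0.04 and within later dates (1 and 2) -0.01. Each of these fits has a group of 1 bull and takes its spread from the other group. A count of calls from them says little, and only the median difference is given. The difference between dates in the group effect was called at no CpG-dense probe.

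What the 6 arrays could resolve differed from probe to probe. The median standard error of the difference was 0.36, and the 95% interval lay within 1 on the log2 scale on both sides of 0 for 280 of the 667 probes (42.0%). With the date as a block that count was 444 (66.6%). For the other probes the interval reached past 1 in at least 1 direction, so that 6 bulls leave a difference of that size undecided.

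Groups did not overlap at 30 probes. In 5 (0.75%) every high-fertile bull lay above every subfertile bull, against 2.58% of all tested probes, and in 25 (3.75%) below, against 3.2%. Among the 5, IP DNA was well above background in at least 2 bulls of each group at all; the 3 with the smallest unadjusted p lay near MIR15B, near TAC1, which encodes substance P, and on chromosome 17 (30846505 to 30846564). The probe near TAC1 read -0.57, -0.29 and -0.03 in HF2, HF3 and HF5 and -0.69, -0.69 and -0.86 in SF1, SF4 and SF5. Its difference was 0.45 ± 0.30 (SE), with a 95% interval from -0.21 to 1.11. The 5 CpG-dense probes of that locus (15271569 to 15271726 on chromosome 4) had a high-fertile mean of -0.44 and a subfertile mean of -0.37, the opposite order.

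HNRNPA1 was the only named probe without overlap, with a difference of -0.31 ± 0.28 (SE) and a 95% interval from -0.94 to 0.32, against levels far below the array median in all 6 bulls. Of the 25, 21 had IP DNA well above background in at least 2 bulls of each group, and among these the smallest unadjusted p was at an unnamed probe on chromosome 29 (29794833 to 29794892). It read -1.71, -1.43 and -1.07 in HF2, HF3 and HF5 and -0.29, -0.85 and -0.46 in SF1, SF4 and SF5, a difference of -0.87 ± 0.32 (95% interval -1.58 to -0.16 before adjustment). A probe on chromosome 19 (61330168 to 61330227) read -0.60, -0.57 and 0.21 in high-fertile bulls and 0.34, 0.42 and 0.64 in subfertile bulls, with bulls in the same order. A probe 170 bp from TERF2IP differed by -0.62 ± 0.30, while the 3 probes that overlap it differed by 0.08 to 0.27, and the 4 together averaged -0.72 and -0.71 in the 2 groups.

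**Figure D4:**
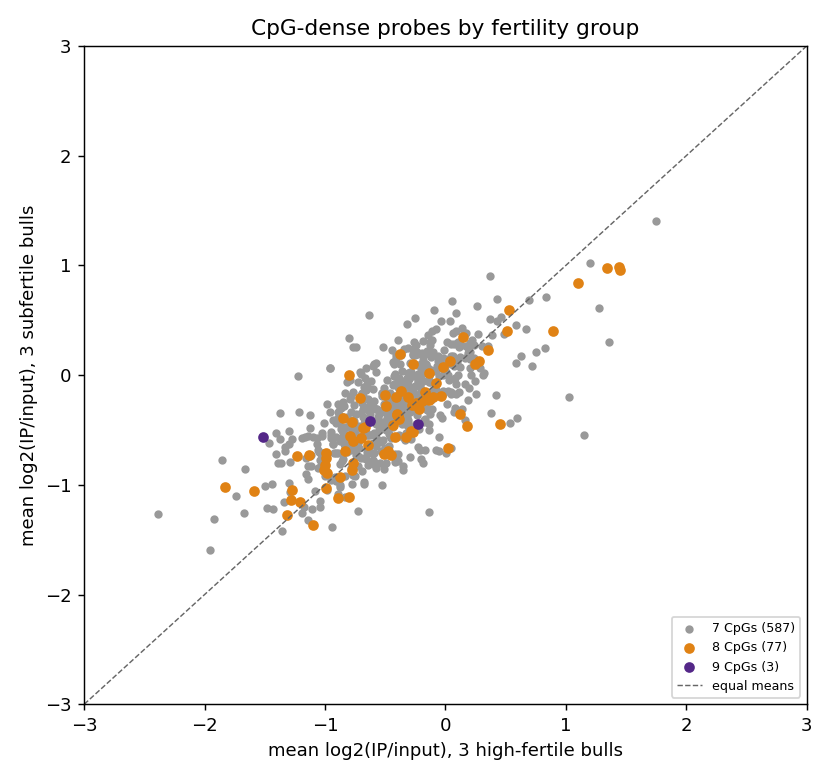
Mean log2(IP/input) of the 667 tested CpG-dense probes in the 3 high-fertile bulls (horizontal axis) and the 3 subfertile bulls (vertical axis), coloured by the number of CpGs; the dashed line marks equal means. The 442 probes with a negative difference lie above the line and the 225 with a positive difference below it, and none was called.

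Neighbouring probes were also read as runs. A run is at least 3 tested probes with gaps of at most 500 bp, read as their mean, and in 30 of 9334 runs at least 1 in 2 probes was CpG-dense; they hold 90 CpG-dense probes. The array median was the reference again, and 15 of the 30 were called lower, against 24.3% of all runs, and none higher, against 4.31%. Their median was -0.41 against -0.15 for all runs. The lowest lay on chromosome 21 (47693500 to 47693574), chromosome 1 (148921360 to 148921666), chromosome 13 (43329091 to 43329164) and chromosome 16 (48293433 to 48293536), with means of -1.11, -1.08, -1.04 and -0.92, none with a gene name.

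By scan date, 16 of the 30 runs were called higher on later dates, against 33.9% of all runs, and 2 lower, against 3.11%. These include the runs on chromosomes 1 (adjusted p = 0.00752) and 13 (adjusted p = 0.0204) just named. The highest runs were 1 on chromosome 26 (48283780 to 48283863) with 0.06, C1QBP, a protein of the mitochondrial matrix, with 0.04, PSMB10, an immunoproteasome subunit, with -0.15 and GATA2 with -0.15. All 4 were below the array median in the 3 bulls of the first date. None of the 30 runs differed between fertility groups in limma's test, and 0.0% of all runs did. None of the 30 had an unadjusted p below 0.05, against 43 of all 9334 runs. At so small a share, none among 30 says little. The groups did not overlap in 1 run of the 30, on chromosome 11 (104818276 to 104818355). The share of all runs without overlap is not given, so this run is a description and no group difference is read from it. It read -0.89, -0.77 and -0.95 in HF2, HF3 and HF5 and -0.70, -0.69 and -0.70 in SF1, SF4 and SF5, a difference of -0.17 with all 6 bulls within 0.26 of each other.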

How the data were processed

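The deposited files of the scanner give linear intensities per spot, extracted with Agilent Feature Extraction 10.7.3.1 per the file headers, which name the CGH protocol for SF1 and the ChIP protocol for the others. The deposited log10 ratio is Cy5 over Cy3, that is IP over input; the deposited series table holds it on the log2 scale, as a comparison with the scanner files showed. The processed signals were turned into log2(IP/input) and centred on each array's median over non-control probes, with no further normalization. All arrays have the same dye orientation, so dye cannot be told apart from IP against input in any level. Whether dye bias was equal across the arrays was not tested. Probes were tested where input was well above background on all 6 arrays and no spot was flagged as non-uniform. Tests used limma 3.58.1 in R 4.3.3 (2-sided, Benjamini-Hochberg over all tested probes, threshold 0.05), with group alone for fertility, group and scan date for the dates, and the mean over groups for levels; the script was tested on simulated data. Version 1.17.8 of data.table, pandas 2.3.3 and matplotlib 3.10.9 were used. Coordinates count from 1, as the files give them. Names are those of the array files. Probes without a name were set beside the nearest named probe within 500 bp, and loci and neighbours were added, after the data were seen. The CpG-dense probes and the gene lists were chosen with earlier results of these data known. Genes were named by rank of level, of group difference without overlap, of date difference and of CpG number; others are marked as chosen after their values were seen. The named probes with the most CpG-dense probes per gene could not be ranked, since each name stood on 1. Alternatives were another background correction, the deposited ratio, centring, filters, CpG minimum, averaged duplicates, date or slide as a block, and each bull left out. One gene of the lists is not reported here.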

Additional observations from a re-analysis of the deposited data

How the results depend on the processing

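The median level of the CpG-dense probes stayed negative and within 1 SD of its value under every alternative tried, from -0.55 in the first scan date alone to -0.20 in later dates alone, and from -0.43 to -0.34 with a bull left out. The fertility count of probes and of runs was 0 under every alternative. The count called lower (189 of 667) was 260 with normexp (offset 50) and 122 when centred on tested probes. It was 99 without the input filter for the tested table and 295 with the date as a block. With a bull left out it was 34 to 212 (34 without SF5, all among the 189). With IP required on all arrays it was 98 of 354. Other CpG minimums gave 976 of 3642 for 6 or more and 27 of 80 for 8 or more. The count called higher (8) was 3 with normexp, 13 when centred on tested probes and 2 without the filter. It was 21 with the date as a block, 13 with the slide as a block and 1 to 11 with a bull left out. With 6 or more CpGs it was 34 of 3642, and with 8 or more 2 of 80. The count called by scan date (75) was 205 with normexp, 20 when centred on tested probes, 49 without centring and 0 without the filter. It was 116 of 354 with IP required, 0 with the slide as a block and 0 to 160 with a bull left out. With 6 or more CpGs it was 311 of 3642, and with 8 or more 10 of 80. The shares of all tested probes in these fits are not given, so the counts describe the CpG-dense probes alone. The cause of these moves was not tested, beyond the number of probes or bulls that enter. Signs reversed with normexp for MIR124B (-0.073), DMRTA2 (-0.194), RBM4 (-0.087), CKS1B (-0.096) and the C1QBP run (-0.132), and when centred on tested probes for the runs of GATA2 (0.01) and PSMB10 (0.013). With a bull left out, values ran from -0.042 to 0.323 for MIR124B, -0.014 to 0.21 for DMRTA2, -0.023 to 0.157 for RBM4, -0.055 to 0.116 for CKS1B, -0.348 to 0.036 for the PSMB10 run, -0.144 to 0.202 for the C1QBP run and -0.133 to 0.213 for the chromosome 26 run. No paired analysis was possible because the groups share only bull number 5, which names different bulls.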
